A study of Mus musculus with 5 samples.

Results

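The comparison described here set BV-2 cells given the low dose of trazodone (TZ), 1.25 µg/mL, before urban particulate matter (UPM) against BV-2 cells given the same UPM alone. It rested on 2 of the 5 libraries of the study, 1 library a side. Members were the genes with a mean over the pair of at least 10 CPM, the count scaled to a library of 1000000 counts, which left 8336 of the 40879 gene symbols in each file. The value in the control library is printed beside each gene to show whether the UPM library or the TZ library stood apart.

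BV-2 is an immortalised mouse microglial line, and all 5 cultures were BV-2. The groups were a control with neither agent, UPM at 50 µg/mL for 23 h, and UPM at that dose and time after 1 h with TZ at 1.25, 2.5 or 5 µg/mL, named TZ 1.25, TZ 2.5 and TZ 5 below. The labels do not say which vehicle, if any, the control cells were given. RNA was read from its polyadenylated 3′ end by QuantSeq, in which an oligo-dT primer starts each copy, so a count stands for a transcript end rather than for transcript length.

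Microglia are the macrophages that reside in the brain, and they sense particles, microbes and damaged cells through scavenger receptors, Toll-like receptors and cytosolic nucleic acid sensors. Sensing of nucleic acids leads to type I interferon, which acts through its receptor on a large group of antiviral genes. The integrated stress response is a separate pathway, in which slowed translation raises the factor ATF4 and its targets in amino acid supply and cell death. Trazodone is an antidepressant that blocks serotonin, adrenergic and histamine receptors and the serotonin transporter, and it is also known as a compound that dampens signalling downstream of the integrated stress response kinases.

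The libraries held between 6829720 and 7696168 counts and their TMM scaling factors ran from 0.991 to 1.01. Of 15 microglial and macrophage identity markers 13 were measured, and their summed level ran from 4905 to 5255 normalised CPM over the 5 libraries. Tmem119 and P2ry12, markers of microglia in the brain, were low, at 3.06 to 7.45 and 0.666 to 1.60 normalised CPM. Summed neuron markers reached at most 1.80 normalised CPM and astrocyte markers 1.74, and the largest sum for another cell type was 36.7 to 51.1, for endothelial and mural markers. In a bulk sample, fewer cells with a gene on and less RNA per cell cannot be told apart.

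A gene was called higher or lower in TZ 1.25 where the fold over UPM was at least 1.5 in either direction and its 95% interval excluded 1. The interval is an exact binomial (Clopper-Pearson) interval and covers counting error only. By this rule 99 genes (1.19% of 8336) were called higher and 86 (1.03%) lower. The median log2 fold over all 8336 genes was −0.00. With 1 library a side this is a rule of size and counting error, no p-value can be given for the pair, and no replicate shows how far 2 UPM cultures would differ.

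The calls lay mostly among weakly expressed genes. Of 2983 genes with a mean between 10 and 30 normalised CPM, 163 were called (5.46%), and of 3333 genes between 30 and 100 there were 20 (0.600%). Among the 2020 genes at 100 or above, 2 were called (0.0990%), Clic1 higher and the predicted gene Gm26205 lower. These were named after their values were seen. The upper bound of the counting interval was 1.64 times the lower bound for the median gene of the weakest band and 1.17 times in the strongest. A fold limit of 2 left 4 called genes, a mean CPM minimum of 30 left 22, and a minimum of 1 gave 809. Just inside the limits were Cnot4 at a fold of 1.506 and Klhl9 at 0.6666. Just outside were Ankle1 at 1.497 and Sirt1 at 0.6667.

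**Figure D1:**
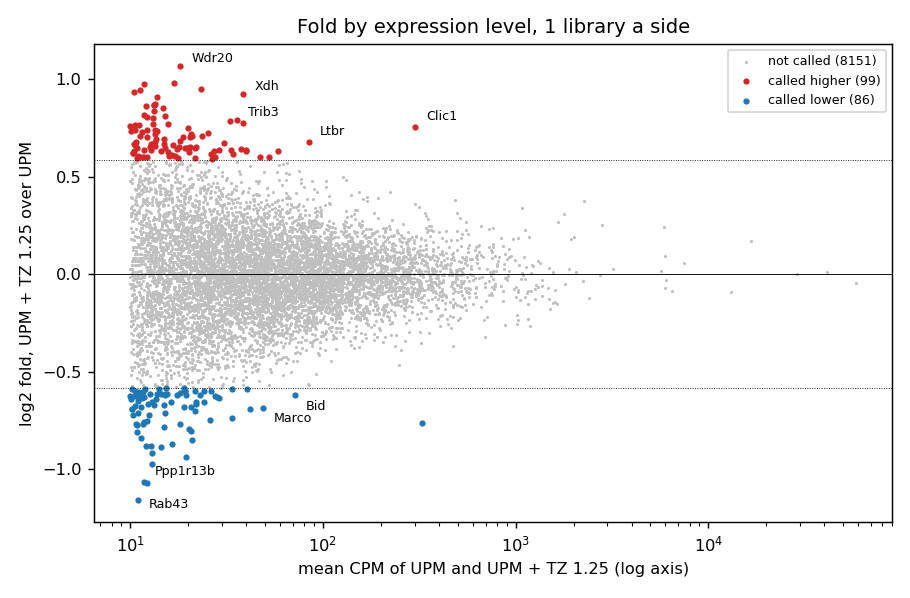
Log2 fold of TZ 1.25 over UPM (vertical axis) against the mean normalised CPM of the pair (log axis), 1 point a gene for 8336 genes. Red points are the 99 genes called higher, blue points the 86 called lower, grey points the rest, and dotted lines mark a fold of 1.5 either way. Most called genes lie at the left, under 30 CPM, and Clic1 is the red point at the highest level.

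Of the 185 called genes 170 were protein coding in RefSeq, matched by symbol, 6 were long noncoding RNAs, 3 were transcribed pseudogenes and 1 was a transfer RNA, while 5 had no match. Bc1, a short cytoplasmic noncoding RNA, had 42 in UPM and 25.2 in TZ 1.25, beside 58.7 in the control, 37.5 in TZ 2.5 and 37.3 in TZ 5. It was thus lowest in TZ 1.25 and highest in the control. The threonine transfer RNA TrnT had 37.5 in UPM and 56.8 in TZ 1.25, beside 38.3 in the control, 42.3 in TZ 2.5 and 40.6 in TZ 5, and only the TZ 1.25 library stood off.

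Clic1, an intracellular chloride channel protein with an oxidoreductase fold, had the highest level of the genes called higher. Its normalised CPM was 225 in UPM and 379.7 in TZ 1.25, beside 419 in the control, 376 in TZ 2.5 and 326 in TZ 5, which is a fold of 1.69 (1.59 to 1.79) for TZ 1.25 over UPM. The UPM library was the lowest of the 5 and the other 4 lay well above it. Gm26205 had 413 in UPM and 244 in TZ 1.25, beside 287 in the control, 221 in TZ 2.5 and 172 in TZ 5, a fold of 0.59 (0.556 to 0.626). Here UPM was the highest, and the 3 TZ libraries descended below the control with dose. Ltbr, the lymphotoxin beta receptor that feeds the noncanonical NF-kB pathway, had 65.1 in UPM and 104 in TZ 1.25, beside 101 in the control, 116 in TZ 2.5 and 121 in TZ 5. UPM again stood alone, below the control and below all 3 TZ libraries.

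The control value shows which library of the pair stood off. A gene was put near UPM or near TZ 1.25 where the control lay within 1.2-fold of that library, and otherwise between the pair or beyond one of them. Among genes called higher the control lay near TZ 1.25 for 54 of 99, near UPM for 27, between for 15, beyond UPM for 2 and beyond TZ 1.25 for 1. Among genes called lower it lay near TZ 1.25 for 28 of 86, near UPM for 27, between for 21, beyond UPM for 4 and beyond TZ 1.25 for 6. The control was thus at the TZ 1.25 level for 54.5% of the genes called higher and 32.6% of those called lower. Both ratios in this description contain the UPM library or the TZ 1.25 library of the call itself, so it shows where the control sits and is no test of a return to it. With the class width narrowed to 1.1-fold, 43 of 185 lay near TZ 1.25 and 31 near UPM.

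**Figure D2:**
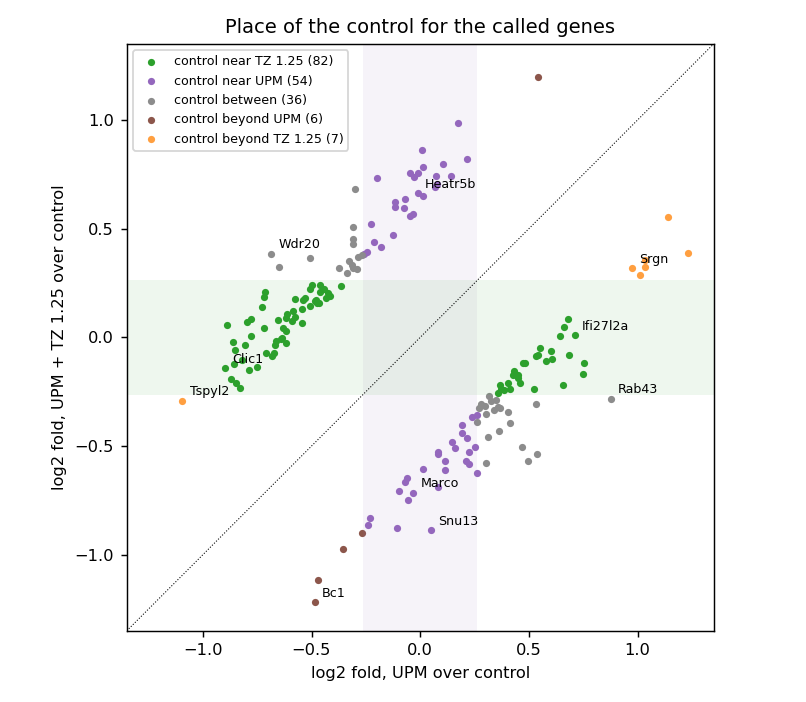
The 185 called genes by log2 fold of UPM over control (horizontal axis) and log2 fold of TZ 1.25 over control (vertical axis), 1 point a gene, coloured by the place of the control. Shaded bands mark 1.2-fold around the control and the dotted line marks equal folds. Points in the horizontal band have the control at the TZ 1.25 level (82 genes), and points in the vertical band have it at the UPM level (54 genes).

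The same question was put to the order of all 5 libraries, an approach added after the data were seen. UPM was the lowest of the 5 libraries for 84 of the 99 genes called higher, and TZ 1.25 was the highest for 49. Of the 86 genes called lower, UPM was the highest of 5 for 60 and TZ 1.25 the lowest for 65. The median of the control, TZ 2.5 and TZ 5 lay nearer to TZ 1.25 for 78 of the 99 higher and for 50 of the 86 lower genes. Selection of these genes on the pair itself pushes both libraries towards the extremes.

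Libraries that the pair did not use gave small medians over all called genes and larger ones where TZ 1.25 stood off. Over the 99 genes called higher the median log2 fold of TZ 2.5 over control was 0.09 and of TZ 5 over control 0.14, with 59 of 99 above 0 in each. Over the 86 called lower these medians were −0.02 and −0.05, with 44 and 48 genes below 0. Medians over all 8336 genes were −0.01 and 0.00. For the 27 genes called higher with the control near UPM the medians were 0.42 at TZ 2.5 and 0.41 at TZ 5, with 25 and 24 of 27 above 0. For the 27 called lower with the control near UPM they were −0.24 and −0.26, with 21 and 20 of 27 below 0. Where the control lay near TZ 1.25 they were −0.05 and −0.05 for the 54 called higher and 0.12 and 0.12 for the 28 called lower. The control library is part both of these ratios and of the place it was given, so they are a description with no test. Against the control itself, TZ 1.25 had 129 genes called higher (1.56% of 8281 measured in that pair) and 68 called lower (0.821%).

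The 10 genes with the highest folds, leaving out predicted genes, each had UPM as the lowest library or close to it. Wdr20, a partner of the deubiquitinases USP12 and USP46, had 11.8 in UPM and 24.7 in TZ 1.25, beside 18.9 in the control, 16 in TZ 2.5 and 17 in TZ 5, a fold of 2.1 (1.62 to 2.73). Dgkq, which phosphorylates diacylglycerol to phosphatidic acid, had 11.4 in UPM and 22.5 in TZ 1.25, beside 14 in the control, 17.6 in TZ 2.5 and 16.4 in TZ 5, a fold of 1.97 (1.51 to 2.59). For both genes TZ 1.25 was the highest library and UPM the lowest, with the remaining 3 between them. Prrg2, a membrane protein with a Gla domain, followed the same order, at 7.97 in UPM and 15.7 in TZ 1.25, beside 12.5 in the control, 11.3 in TZ 2.5 and 11.7 in TZ 5.

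Xdh, the xanthine dehydrogenase that forms uric acid from purines, separated differently. Its normalised CPM was 26.7 in UPM and 50.6 in TZ 1.25, beside 43.8 in the control, 50.8 in TZ 2.5 and 48.2 in TZ 5, a fold of 1.9 (1.59 to 2.26). UPM lay alone at the low end, and the control lay a little below the 3 TZ libraries, which were level with each other. Rpl14-ps1, a pseudogene copy of a ribosomal protein gene and so uncertain in its reads, had 15.9 in UPM and 30.8 in TZ 1.25, beside 29.6 in the control, 32.5 in TZ 2.5 and 23.6 in TZ 5. The inflammasome sensor Nlrp1b had 8.63 in UPM and 15.7 in TZ 1.25, beside 14.8 in the control, 17 in TZ 2.5 and 15.1 in TZ 5, with UPM alone at the low end. Uchl1, a ubiquitin hydrolase, had 9.54 in UPM and 17.9 in TZ 1.25, beside 15.7 in the control, 15.4 in TZ 2.5 and 12.9 in TZ 5, and Nupl2, a nucleoporin, had 9.41 in UPM and 17.2 in TZ 1.25, beside 15.6 in the control, 13 in TZ 2.5 and 17.8 in TZ 5. UPM was the lowest library for each of these 5 genes and the control lay within 1.2-fold of TZ 1.25. Alkbh7, a mitochondrial dioxygenase, had 8.49 in UPM and 15 in TZ 1.25, beside 10.5 in the control, 15.2 in TZ 2.5 and 14.9 in TZ 5, where all 3 TZ libraries lay above both the control and UPM.

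Fkbp1b, a ryanodine receptor binding protein, was the only one of these 10 with the control at the UPM level. It had 11 in UPM and 19.3 in TZ 1.25, beside 9.72 in the control, 17.9 in TZ 2.5 and 13.9 in TZ 5, a fold of 1.75 (1.33 to 2.33). TZ 1.25 and TZ 2.5 were high, TZ 5 stood midway, and the libraries without TZ were both low.

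At the low end of the scale the pattern was more mixed. Rab43, a small GTPase of traffic between the endoplasmic reticulum and the Golgi, had 15.2 in UPM and 6.79 in TZ 1.25, beside 8.25 in the control, 9.82 in TZ 2.5 and 9.14 in TZ 5, a fold of 0.448 (0.314 to 0.631). Rnf138, a ubiquitin ligase of DNA break repair, had 16.6 in UPM and 7.9 in TZ 1.25, beside 11.4 in the control, 11.8 in TZ 2.5 and 10.6 in TZ 5, a fold of 0.476 (0.342 to 0.655). UPM was the highest and TZ 1.25 the lowest library for both. Ppp1r13b, which encodes the p53 partner ASPP1, had 15.9 in UPM and 7.62 in TZ 1.25, beside 11.3 in the control, 6.64 in TZ 2.5 and 9.72 in TZ 5, and TZ 2.5 was the lowest library there.

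Snu13, a protein of box C/D small nucleolar particles and of the spliceosome, had 25.5 in UPM and 13.3 in TZ 1.25, beside 24.6 in the control, 16.5 in TZ 2.5 and 18.9 in TZ 5. The control matched UPM, and all 3 TZ libraries were below both, with TZ 1.25 the lowest. Rrnad1 had 18.7 in UPM and 10.1 in TZ 1.25, beside 15.6 in the control, 11.7 in TZ 2.5 and 14.8 in TZ 5, again with TZ 1.25 the lowest. Eid2b, an inhibitor of differentiation that binds EP300, had 16.6 in UPM and 9.01 in TZ 1.25, beside 13.4 in the control, 10.2 in TZ 2.5 and 9.57 in TZ 5, where the 3 TZ libraries lay together under the control. Sfi1, a centrosomal protein, had 15.6 in UPM and 8.45 in TZ 1.25, beside 9.85 in the control, 12.7 in TZ 2.5 and 8.7 in TZ 5, and only UPM and TZ 2.5 stood above the control.

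**Figure D3:**
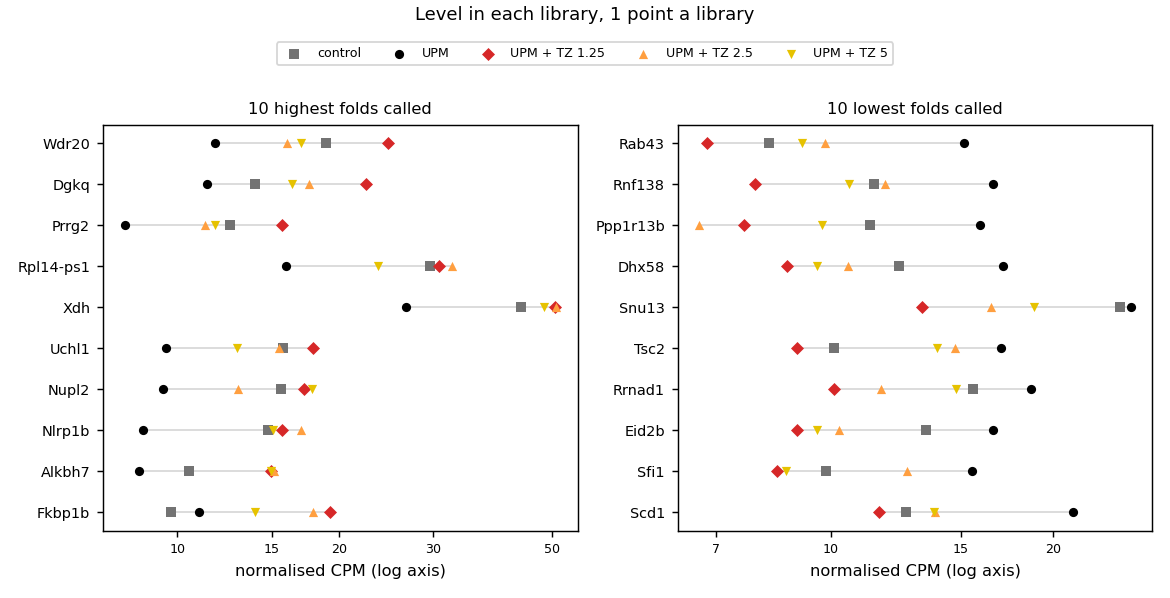
Normalised CPM (log axis) of the 10 called genes with the highest folds of TZ 1.25 over UPM (left) and the 10 with the lowest (right), 1 point a library and 1 library per group. In the left panel the black UPM point is the lowest in every row but that of Fkbp1b, where the control is lower, and in the right panel the UPM point is the highest in every row.

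For 54 called genes the control lay near UPM, so that TZ 1.25 was the library of the pair that stood off from it. After Fkbp1b the highest of these was Nuak1, an AMPK-related kinase, with 8.89 in UPM and 15.5 in TZ 1.25, beside 9.18 in the control, 13.1 in TZ 2.5 and 13.3 in TZ 5. Eral1, which chaperones mitochondrial ribosomal RNA, had 9.67 in UPM and 16.5 in TZ 1.25, beside 9.58 in the control, 16.5 in TZ 2.5 and 14.6 in TZ 5. Arhgap24, a Rac GTPase activating protein, had 11.6 in UPM and 19.8 in TZ 1.25, beside 11.7 in the control, 18.9 in TZ 2.5 and 18.6 in TZ 5. In these 3 genes all TZ libraries lay above the control and UPM. Lca5, a ciliary protein, did not share this, at 8.23 in UPM and 14 in TZ 1.25, beside 8.39 in the control, 7.79 in TZ 2.5 and 9.57 in TZ 5, where TZ 1.25 alone was high. Prr3 had 7.84 in UPM and 13.2 in TZ 1.25, beside 9.18 in the control, 10.7 in TZ 2.5 and 12.2 in TZ 5.

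The lowest genes of this class after Snu13 and Rrnad1 were Rybp, Phlpp2, Erh and Rnf24. Rybp, a Polycomb protein, had 13.9 in UPM and 7.9 in TZ 1.25, beside 11.8 in the control, 11.7 in TZ 2.5 and 8.99 in TZ 5. Phlpp2, a phosphatase that acts on Akt, had 18.8 in UPM and 10.9 in TZ 1.25, beside 16.2 in the control, 11.5 in TZ 2.5 and 10.9 in TZ 5, with the 3 TZ libraries level and below the control and UPM. Erh, a small nuclear protein of RNA processing, had 13.5 in UPM and 7.9 in TZ 1.25, beside 14.5 in the control, 8.37 in TZ 2.5 and 8.7 in TZ 5. Rnf24, a ring finger protein, had 14.6 in UPM and 8.59 in TZ 1.25, beside 13.8 in the control, 5.49 in TZ 2.5 and 7.25 in TZ 5. Each of these 4 genes had all 3 TZ libraries below both libraries without TZ, though for Rybp TZ 2.5 was nearly level with the control.

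Where the control lay near TZ 1.25, the 4 lowest folds were those of Tsc2, Sfi1, Scd1 and Ada. Ada, adenosine deaminase, had 22.9 in UPM and 13.4 in TZ 1.25, beside 14.2 in the control, 16.3 in TZ 2.5 and 17.5 in TZ 5. UPM was the highest library, and the TZ libraries were higher at each higher dose.

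Tests could use the dose series, since the UPM libraries differ in dose. In edgeR's quasi-likelihood fit with a UPM term and a linear term for TZ dose, 346 of 12381 genes rose with dose (2.79%) and 360 fell (2.91%) at a Benjamini-Hochberg adjusted p under 0.05. This fit has 2 residual degrees of freedom and leans on spread shared across genes, and it includes both libraries of the pair. It called 706 genes in all, 202 without the UPM library and 370 without TZ 5. DESeq2 called 315 of the 3613 genes it tested, so its count and that of edgeR have unlike totals. Of the 99 genes called higher 9 rose with dose and 2 fell, and of the 86 called lower 4 fell and 0 rose. These genes were chosen on the UPM and TZ 1.25 libraries, which the dose fit also uses, so the choice favours matching directions and the counts support nothing by themselves. Most called genes had no trend that passed the test. Dose trends given below for list members come from this same fit, so they add no separate support for a difference within the pair.

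Among the called genes with a trend were Ltbr, given above, Heatr5b, Insig2, Lrp5, a Wnt coreceptor, and Mybl1, a MYB family factor. No p is given for them, since the call and the slope share libraries. Heatr5b had 23.5 in UPM and 37.6 in TZ 1.25, beside 23.7 in the control, 43.3 in TZ 2.5 and 43.4 in TZ 5, with the control at the UPM level. Insig2, which retains the sterol sensing complex of SREBP in the endoplasmic reticulum, had 14.1 in UPM and 21.3 in TZ 1.25, beside 16 in the control, 23.5 in TZ 2.5 and 26.8 in TZ 5. For Heatr5b and Insig2 the level at TZ 1.25 was short of that at TZ 5. Lrp5 had 17.3 in UPM and 26.1 in TZ 1.25, beside 27.7 in the control, 24.5 in TZ 2.5 and 34.4 in TZ 5, with UPM the lowest library and TZ 5 the highest. Mybl1 had 18.8 in UPM and 11.5 in TZ 1.25, beside 9.18 in the control, 11.3 in TZ 2.5 and 7.25 in TZ 5, with UPM the highest library and TZ 5 the lowest. These genes were named after their values were seen.

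A second fit asked whether TZ 1.25 stood apart from UPM, TZ 2.5 and TZ 5 taken as 1 group. It called 0 of 12381 genes (0%) at an edgeR adjusted p under 0.05, with 342 at an unadjusted p under 0.05. DESeq2 called 0 as well, with 64 at an unadjusted p under 0.05. Leaving out TZ 2.5 gave 1 call, and without a filter on low counts there were 2. The numbers of genes at an unadjusted p under 0.05 fall short, in edgeR and in DESeq2, of the share of 0.05 given where no gene differs. Differences between UPM, TZ 2.5 and TZ 5 count as noise in that fit.

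Of the 185 called genes 17 belonged to at least 1 of the gene lists, which group genes by function. The share of all 8336 genes that belong to a list was not counted. The 17 therefore do not show that calls gather in the lists. Calls in every list below stand beside 1.19% called higher and 1.03% called lower over all 8336 genes. Weakly expressed genes were called more often, with 84 higher and 79 lower of 2983 genes between 10 and 30 normalised CPM. No share matched for level was taken, so the shares over all genes are low for weakly expressed members. At these shares most lists hold few or no calls, so 0 calls does not set a list apart. The interferon response list held 5 of the 17 called list members, with pair means from 10.2 to 21.6 normalised CPM. Over its 44 measured members 4 were called lower and 1 higher, beside 1.03% and 1.19% over all genes, and the median log2 fold of TZ 1.25 over UPM was −0.17, beside −0.00 over all genes. The fold was under 1 for 31 members and above it for 13. The median was −0.03 for UPM over control and −0.15 for TZ 1.25 over control, so over the list as a whole the control sat near UPM. TZ 2.5 and TZ 5 over control gave −0.21 and −0.08.

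Among the sensors, Dhx58 encodes LGP2, a regulator of RNA sensing without a signalling domain of its own. It had 17.1 in UPM and 8.73 in TZ 1.25, beside 12.4 in the control, 10.5 in TZ 2.5 and 9.57 in TZ 5, a fold of 0.51 (0.371 to 0.694). Ifih1 encodes MDA5, the sensor of long double-stranded RNA, and had 26.4 in UPM and 15.1 in TZ 1.25, beside 19.8 in the control, 16.2 in TZ 2.5 and 19.1 in TZ 5, a fold of 0.572 (0.449 to 0.726). UPM was the highest library and TZ 1.25 the lowest for both sensors, with the control between. Rigi, the sensor of short double-stranded RNA, had 58.4 in UPM and 50.6 in TZ 1.25, beside 59.8 in the control, 42.9 in TZ 2.5 and 49.6 in TZ 5, short of a call.

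Among the effectors, Ifit3, which binds viral RNA together with Ifit1, had 12.5 in UPM and 7.76 in TZ 1.25, beside 13 in the control, 9.67 in TZ 2.5 and 8.12 in TZ 5, a fold of 0.619 (0.437 to 0.869). The control was level with UPM, and the 3 TZ libraries lay below. Ifi27l2a had 26.8 in UPM and 16.5 in TZ 1.25, beside 16.4 in the control, 16.5 in TZ 2.5 and 16.2 in TZ 5, a fold of 0.616 (0.487 to 0.775). UPM alone was high there, and the other 4 libraries were level. Herc6, a ligase that attaches ISG15 in the mouse, went the other way, at 15.8 in UPM and 24.4 in TZ 1.25, beside 19.6 in the control, 21.2 in TZ 2.5 and 30.3 in TZ 5, a fold of 1.54 (1.22 to 1.96). TZ 5 was the highest library and UPM the lowest.

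Members short of a call showed both directions. The nuclear body protein Sp100 had 24.8 in UPM and 16.9 in TZ 1.25, beside 28.9 in the control, 23.1 in TZ 2.5 and 22.6 in TZ 5, and the interferon-inducible gene Ifi204 had 37.5 in UPM and 27 in TZ 1.25, beside 32.6 in the control, 28.1 in TZ 2.5 and 37 in TZ 5. TZ 1.25 was the lowest library for both. Isg15, a ubiquitin-like modifier, had 40.3 in UPM and 49.1 in TZ 1.25, beside 78.7 in the control, 49.7 in TZ 2.5 and 54.1 in TZ 5, and Bst2, which tethers budding virus, had 40.6 in UPM and 51 in TZ 1.25, beside 71.2 in the control, 45.8 in TZ 2.5 and 41.8 in TZ 5. For these the control was the highest library and UPM the lowest, and TZ 1.25 lay closer to UPM than to the control. UPM was the highest of 5 libraries for 13 of the 44 members, and TZ 1.25 was the lowest for 13. The share over all measured genes was not counted, so such counts describe a list and do not set it apart.

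In the dose fit 2 of 56 tested members rose, Rsad2 and Herc6, and 1 fell, Ifi44. Ifi44 had 164 in UPM and 131 in TZ 1.25, beside 173 in the control, 107 in TZ 2.5 and 117 in TZ 5 and an edgeR adjusted p of 0.0170, and Rsad2, which encodes viperin, had 51.5 in UPM and 55.4 in TZ 1.25, beside 69.7 in the control, 58.7 in TZ 2.5 and 75.9 in TZ 5 and an adjusted p of 0.0201 in edgeR's fit. Neither was called at TZ 1.25. Of 16 measured genes for interferon sensing and receptors 0 were called, with a median log2 fold of −0.07 and folds from 0.743 for Socs3, the JAK inhibitor, to 1.46 for Sting1, the adaptor of cytosolic DNA sensing. Sting1 had 14.1 in UPM and 20.6 in TZ 1.25, beside 15.3 in the control, 20.8 in TZ 2.5 and 22.6 in TZ 5, with all 3 TZ libraries above the control and UPM.

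Promoters of this list are shown because the interferon-stimulated response element ties its members together. The letters GAAANNGAA, a core of that element, were searched on both strands from 250 bases before to 50 after each start in RefSeq promoters of GRCm38.p6. They occurred in 19 of the 35 members with a promoter in the table (54.3%), beside 2638 of all 27025 genes with a promoter there (9.76%). A gene was counted where any of its promoters held the letters. Of the genes called lower, Ifih1 and Ifit3 had a promoter in the table and both held the letters, and Herc6 held none. The stretches below read 5′ to 3′ along the gene's strand, with 1 match per stretch in capitals, which for Ifih1 and Ifit3 is the reverse complement of the motif. Ifit3 and Isg15 hold further matches, which are not marked where they fall in these stretches. Ifih1 lies on the minus strand (chr2:62646329-62646397), Ifit3 on the plus strand (chr19:34583397-34583465) and Isg15 on the minus strand (chr4:156200852-156200920). The matches begin 112, 102 and 72 bases before the start, in that order. A match is a description of the sequence and says nothing of binding in these cells.
Ifih1: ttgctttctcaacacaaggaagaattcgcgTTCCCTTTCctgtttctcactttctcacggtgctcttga
Ifit3: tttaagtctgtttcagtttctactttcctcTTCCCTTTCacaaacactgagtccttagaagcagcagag
Isg15: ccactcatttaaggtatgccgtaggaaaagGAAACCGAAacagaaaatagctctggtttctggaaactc

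Of 26 measured members of the integrated stress response 1 was called higher and 0 lower, beside 1.19% and 1.03% over all genes. The median log2 fold was 0.09, with 14 members above 0 and 12 below. The median was −0.22 for UPM over control and −0.14 for TZ 1.25 over control. UPM was the lowest of the 5 libraries for 12 of the 26 members, a count with no share over all genes beside it.

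Trib3, a pseudokinase target of ATF4 and CHOP, had 26.3 in UPM and 45.5 in TZ 1.25, beside 47.4 in the control, 33.9 in TZ 2.5 and 32.9 in TZ 5, a fold of 1.73 (1.45 to 2.07). The control and TZ 1.25 were level at the high end, UPM was the lowest, and TZ 2.5 and TZ 5 lay in between. Ddit3, which encodes CHOP, had 53.6 in UPM and 74.8 in TZ 1.25, beside 98.6 in the control, 75.6 in TZ 2.5 and 65.3 in TZ 5, a fold of 1.4 (1.23 to 1.59), short of the limit of 1.5. The factor Atf5 had 61.8 in UPM and 89.1 in TZ 1.25, beside 82 in the control, 83.7 in TZ 2.5 and 82.8 in TZ 5, a fold of 1.44 (1.28 to 1.63), and the master factor Atf4 itself had 525 in UPM and 606 in TZ 1.25, beside 702 in the control, 693 in TZ 2.5 and 672 in TZ 5, a fold of 1.15 (1.1 to 1.2). UPM was the lowest library for all 4, and the control lay above or near TZ 1.25.

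Sars, the seryl-tRNA synthetase, had 276 in UPM and 351 in TZ 1.25, beside 369 in the control, 431 in TZ 2.5 and 413 in TZ 5. It rose with dose (edgeR adjusted p = 0.00350). Aars, the alanyl synthetase, had 121 in UPM and 99 in TZ 1.25, beside 109 in the control, 112 in TZ 2.5 and 108 in TZ 5, with UPM the highest library. Chac1, which degrades glutathione, had 19.1 in UPM and 15.7 in TZ 1.25, beside 19.8 in the control, 11.3 in TZ 2.5 and 13.9 in TZ 5, and the first step of serine synthesis, Phgdh, had 12.7 in UPM and 9.98 in TZ 1.25, beside 8.79 in the control, 13.9 in TZ 2.5 and 11 in TZ 5. The members thus did not move as 1 block.

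The letters TGATGNAA, a core of the composite element bound by ATF4 with C/EBP factors, occurred in 8 of the 21 members with a promoter in the table (38.1%), beside 1219 of 27025 genes (4.51%). Trib3, the only called member, was among the 8, though none of its matches lay wholly before the start. The end of these letters can overlap the start of the interferon core, which 1 of these 21 members held. The stretches of Aars, Chac1, Atf3 and Slc7a11 are shown because all 4 hold the same match, in reverse complement and capitals, and their folds ran from 0.819 for Aars and 0.821 for Chac1 through 1.1 for Atf3 to 1.24 for Slc7a11. Slc7a11 holds a further match that is not marked. Atf3 is a stress-induced factor and Slc7a11 the cystine importer. The stretches of Atf3, Slc7a11 and Chac1 lie at chr1:191183406-191183473 (minus strand), chr3:50443623-50443690 (minus strand) and chr2:119351019-119351086 (plus strand), and that of Aars at chr8:111033700-111033767 (plus strand), in GRCm38.p6.
Aars: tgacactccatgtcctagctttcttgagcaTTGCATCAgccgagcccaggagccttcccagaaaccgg
Atf3: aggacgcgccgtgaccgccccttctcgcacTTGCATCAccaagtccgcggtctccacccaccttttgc
Slc7a11: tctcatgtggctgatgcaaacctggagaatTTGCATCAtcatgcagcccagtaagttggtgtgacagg
Chac1: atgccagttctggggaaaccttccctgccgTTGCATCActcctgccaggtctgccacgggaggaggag

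**Figure D4:**
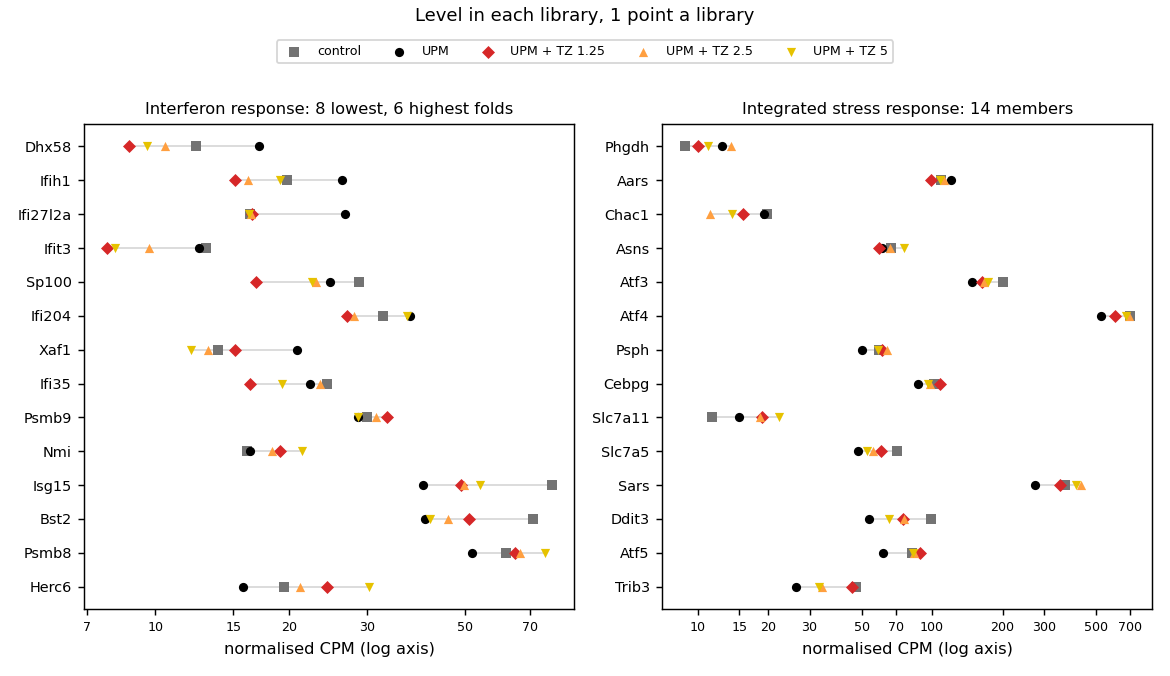
Normalised CPM (log axis) of 14 interferon response members (left, the 8 lowest and 6 highest folds of TZ 1.25 over UPM) and 14 integrated stress response members (right), 1 point a library and 1 library per group. On the left TZ 1.25 is below UPM in the upper 8 rows. On the right UPM is the lowest library for Ddit3, Atf5, Atf4 and Trib3.

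Of 23 measured chaperones and sensors of the endoplasmic reticulum the median was −0.04, and 1 was called lower, beside 1.03% over all genes. Ern1 encodes IRE1, the sensor that splices Xbp1 mRNA, and had 13.5 in UPM and 8.59 in TZ 1.25, beside 18.6 in the control, 14.6 in TZ 2.5 and 14.6 in TZ 5, a fold of 0.638 (0.458 to 0.883). TZ 1.25 was the lowest library and the control the highest. Eif2ak3, which encodes the sensor PERK, had 11.5 in UPM and 16.4 in TZ 1.25, beside 12.4 in the control, 13.7 in TZ 2.5 and 10.6 in TZ 5, a fold of 1.42 (1.07 to 1.9), short of the limit.

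The lists of cytokines and chemokines, NF-kB genes and Toll-like receptor sensing held no called gene. Over all genes 1.19% were called higher and 1.03% lower, so 0 calls does not set lists of this size apart. Ltbr, called higher and given above with the NF-kB pathway it feeds, is not a member of these lists. Of 15 measured cytokines and chemokines 0 were called (median −0.00), of 18 NF-kB genes 0 (0.07) and of 17 genes of Toll-like receptor sensing 0 (−0.00). Tnf had 70.2 in UPM and 75.1 in TZ 1.25, beside 74.9 in the control, 81.1 in TZ 2.5 and 81.2 in TZ 5, a fold of 1.07 (0.948 to 1.21). Nos2, the inducible nitric oxide synthase, had 11.8 in UPM and 12.2 in TZ 1.25, beside 17.8 in the control, 11 in TZ 2.5 and 9.57 in TZ 5, and the chemokine Ccl2 had 104 in UPM and 93.8 in TZ 1.25, beside 81.1 in the control, 70.6 in TZ 2.5 and 83 in TZ 5, a fold of 0.903 (0.814 to 1.00). For Tnf and Nos2 the intervals held 1, and for Nos2 the control was above all 4 UPM libraries. Il1b was low, at 2.80 to 4.06 normalised CPM, Il6 at 0.144 to 1.74 and Ptgs2 at 0 to 0.870, so no fold was read for them.

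The lowest fold among the cytokines was that of Il18, which is matured by caspase-1, at 14.9 in UPM and 10.4 in TZ 1.25, beside 17.8 in the control, 15 in TZ 2.5 and 13.8 in TZ 5, a fold of 0.698 (0.514 to 0.942). Of 14 measured inflammasome genes 1 was called higher, Nlrp1b, given above, beside 1.19% over all genes. Nlrp3 had 10.6 in UPM and 8.87 in TZ 1.25, beside 8.25 in the control, 10.8 in TZ 2.5 and 11.3 in TZ 5, a fold of 0.838 (0.594 to 1.18), and the pore former Gsdmd had 25.6 in UPM and 30.1 in TZ 1.25, beside 30.3 in the control, 29.6 in TZ 2.5 and 34.8 in TZ 5. Tlr4, the lipopolysaccharide receptor, had 103 in UPM and 103 in TZ 1.25, beside 88.9 in the control, 93 in TZ 2.5 and 98.5 in TZ 5, a fold of 1.00 (0.903 to 1.11). Its coreceptor Ly96 had 10.2 in UPM and 15 in TZ 1.25, beside 8.25 in the control, 16.3 in TZ 2.5 and 12 in TZ 5, a fold of 1.47 (1.09 to 1.99), with all TZ libraries above UPM. Unc93b1, which carries nucleic acid sensing Toll-like receptors to endosomes, had 183 in UPM and 148 in TZ 1.25, beside 167 in the control, 130.2 in TZ 2.5 and 128 in TZ 5. It fell in the dose fit, and no p is given since it was named by its fold in the pair.

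Genes of lipid efflux and desaturation are switched on by sterols through nuclear receptors. The median was −0.13 over 19 measured targets of the liver X receptors (LXR) and genes of cholesterol efflux. Of these 1 was called lower, beside 1.03% over all genes. The median was 0.11 for UPM over control and −0.05 for TZ 1.25 over control. Scd1, the desaturase that makes oleic acid, had 21.3 in UPM and 11.6 in TZ 1.25, beside 12.6 in the control, 13.9 in TZ 2.5 and 13.8 in TZ 5, a fold of 0.547 (0.415 to 0.715). UPM alone was high. Scd2, the form abundant in brain, had 289 in UPM and 209.5 in TZ 1.25, beside 257 in the control, 194 in TZ 2.5 and 199 in TZ 5, a fold of 0.725 (0.679 to 0.775). It fell in the dose fit, and no p is given since it was named by its fold in the pair. UPM was the highest of 5 libraries for 9 of the 19 members, again with no share over all genes beside it.

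Of 20 measured genes of cholesterol synthesis and uptake 1 was called lower, beside 1.03% over all genes. It was Stard4, a carrier of sterol inside the cell, with 48.7 in UPM and 32.4 in TZ 1.25, beside 37.8 in the control, 33.8 in TZ 2.5 and 36.3 in TZ 5 and a fold of 0.665 (0.563 to 0.786). The list's median was −0.04. Hmgcs1 had 167 in UPM and 164 in TZ 1.25, beside 158 in the control, 155 in TZ 2.5 and 166 in TZ 5, and Dhcr7, the last enzyme of the pathway, had 43.3 in UPM and 43.5 in TZ 1.25, beside 37.8 in the control, 33.2 in TZ 2.5 and 36 in TZ 5, with folds of 0.983 and 1.01. Acat2 had 69.9 in UPM and 51.7 in TZ 1.25, beside 62.4 in the control, 59.9 in TZ 2.5 and 56.7 in TZ 5, a fold of 0.739 (0.646 to 0.845). In Stard4 and Acat2 UPM was the highest library and TZ 1.25 the lowest.

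Antioxidant genes differed between the control and the UPM libraries more than within the pair. Over 24 measured NRF2 targets 0 were called in the pair (median 0.05), while the median was 0.22 for UPM over control and 0.29 for TZ 1.25 over control. Gsta3, a glutathione transferase, had 21 in UPM and 27.7 in TZ 1.25, beside 5.59 in the control, 25.5 in TZ 2.5 and 33.8 in TZ 5, and the control was far below the 4 UPM libraries. Gclm, a subunit of the enzyme that starts glutathione synthesis, had 92.4 in UPM and 96.5 in TZ 1.25, beside 62.2 in the control, 102 in TZ 2.5 and 85.4 in TZ 5, and Hmox1, heme oxygenase, had 57.8 in UPM and 65.4 in TZ 1.25, beside 49.3 in the control, 63.5 in TZ 2.5 and 60.5 in TZ 5. Their folds of TZ 1.25 over UPM were 1.32 (1.07 to 1.63) for Gsta3, 1.04 (0.939 to 1.16) for Gclm and 1.13 (0.993 to 1.29) for Hmox1. Tkt, transketolase, differed in having UPM as its lowest library, at 189 in UPM and 254 in TZ 1.25, beside 247 in the control, 226 in TZ 2.5 and 201 in TZ 5.

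Metallothionein Mt1 had 513 in UPM and 521 in TZ 1.25, beside 369.5 in the control, 584 in TZ 2.5 and 589.7 in TZ 5, a fold of 1.02 (0.972 to 1.06), and 0 of 10 measured genes of metal and iron handling were called (median −0.01). Of 9 listed genes of the aryl hydrocarbon receptor pathway 3 were measured and 0 called, with a median of −0.08 and folds from 0.939 to 0.951. Its targets Cyp1a1 and Cyp1b1 had 0 counts in all 5 libraries, and Nqo1 lay between 0 and 0.416 normalised CPM. A count of 0 allows up to 3 counts in a library. Tiparp, another target, had 98 in UPM and 92 in TZ 1.25, beside 104 in the control, 83.6 in TZ 2.5 and 77.5 in TZ 5.

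Receptors of phagocytosis included 1 gene called lower of 17 measured, beside 1.03% over all genes, with a median of −0.04. Marco, the scavenger receptor that binds inhaled particles and bacteria, had 60.5 in UPM and 37.7 in TZ 1.25, beside 61.9 in the control, 46.9 in TZ 2.5 and 60.9 in TZ 5, a fold of 0.623 (0.534 to 0.725). The control, UPM and TZ 5 were level, TZ 2.5 lay below them and TZ 1.25 was the lowest. The lower level at TZ 1.25 was thus not seen at 5 µg/mL. Lrp1, a receptor of cell debris and lipoproteins, had 364 in UPM and 286 in TZ 1.25, beside 357 in the control, 323 in TZ 2.5 and 322 in TZ 5, a fold of 0.785 (0.741 to 0.831), with TZ 1.25 again the lowest library. Clec4a2, an inhibitory lectin receptor, had 26.3 in UPM and 20.1 in TZ 1.25, beside 24.5 in the control, 25.3 in TZ 2.5 and 22.6 in TZ 5. TZ 1.25 was the lowest of the 5 libraries for 7 of the 17 members, and the share over all genes was not counted.

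State markers of microglia had 0 calls, of 20 measured disease-associated genes (median −0.05) and of 14 homeostatic genes (0.02). Cd9, a tetraspanin, had 106 in UPM and 149.7 in TZ 1.25, beside 118 in the control, 181 in TZ 2.5 and 209 in TZ 5, a fold of 1.41 (1.29 to 1.55), and Gpnmb, a glycoprotein of lipid-laden macrophages, had 1969.7 in UPM and 2555 in TZ 1.25, beside 2203 in the control, 2872 in TZ 2.5 and 2987 in TZ 5, a fold of 1.3 (1.27 to 1.33). Both rose in the dose fit, and TZ 1.25 already lay above the control. No p is given, since they were named by their folds in the pair, whose libraries that fit also uses. Timp2, a protease inhibitor, had 1303 in UPM and 1084 in TZ 1.25, beside 992 in the control, 891 in TZ 2.5 and 835 in TZ 5. It fell in the dose fit and was named in the same way, so no p is given. Of 40 measured lysosomal genes 0 were called (−0.02) and of 13 genes for MHC class I presentation 0 (0.00).

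Of 26 measured autophagy genes 1 was called lower, beside 1.03% over all genes. It was Wdr45, a lipid-binding protein of early autophagosomes, with 14.4 in UPM and 9.56 in TZ 1.25, beside 6.52 in the control, 11 in TZ 2.5 and 13.3 in TZ 5 and a fold of 0.665 (0.485 to 0.907). The control was the lowest library there, so TZ 1.25 lay between the control and UPM. Calcoco1, an autophagy receptor, had 73.3 in UPM and 102 in TZ 1.25, beside 65.2 in the control, 88.1 in TZ 2.5 and 77 in TZ 5, a fold of 1.39 (1.25 to 1.56), with TZ 1.25 the highest of the 5. The list's median was −0.03.

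Apoptosis regulators set whether mitochondria release the factors that start cell death. Of 20 measured apoptosis regulators 2 were called lower, Ppp1r13b, given above, and Bid, beside 1.03% over all genes. The list's median was 0.02, with 11 members above 0 and 9 below. Bid, which links death receptors to mitochondria, had 86.5 in UPM and 56.3 in TZ 1.25, beside 72.1 in the control, 61.1 in TZ 2.5 and 60.5 in TZ 5, a fold of 0.65 (0.573 to 0.737). UPM was the highest library, and the 3 TZ libraries lay together below the control. Bak1, a pore former of mitochondria, had 55.8 in UPM and 73 in TZ 1.25, beside 78.5 in the control, 87.2 in TZ 2.5 and 73 in TZ 5, a fold of 1.31 (1.15 to 1.49), with UPM the lowest. The 11 measured p53 targets had 0 calls and a median of −0.19, beside −0.20 for UPM over control and −0.34 for TZ 1.25 over control. Cdkn1a, the p21 inhibitor of cell cycle kinases, had 394 in UPM and 320.3 in TZ 1.25, beside 547 in the control, 267 in TZ 2.5 and 210.3 in TZ 5, a fold of 0.813 (0.77 to 0.858). Its level descended through every library from the control to TZ 5, and it fell with dose by 0.18 log2 per µg/mL (SE 0.02, edgeR adjusted p = 3.85e-08).

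Proliferation genes had 0 calls in either list. Over 39 measured genes of DNA replication the median was 0.07, with 27 above 0, and over 30 of mitosis it was −0.05, with 20 below 0. Prim1, a primase subunit, had 24.8 in UPM and 35.2 in TZ 1.25, beside 35.5 in the control, 35.1 in TZ 2.5 and 33.8 in TZ 5, a fold of 1.42 (1.17 to 1.72), and Rpa2, of the single-strand binding complex, had 87.3 in UPM and 119 in TZ 1.25, beside 126 in the control, 136 in TZ 2.5 and 127 in TZ 5, a fold of 1.36 (1.23 to 1.51). UPM alone was low in both. UPM was the lowest of 5 libraries for 13 of the 39 replication genes, and the share over all genes was not counted.

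The list of cytosolic ribosomal protein genes had 0 calls as well. Rpl22l1, a paralog outside that list, was called lower. It had 29.1 in UPM and 19.3 in TZ 1.25, beside 21.7 in the control, 22.2 in TZ 2.5 and 19.9 in TZ 5. The 78 measured cytosolic ribosomal protein genes had a median of −0.08, with 51 below 0. Rps6 had 28.4 in UPM and 20.2 in TZ 1.25, beside 19.8 in the control, 30.7 in TZ 2.5 and 32.9 in TZ 5, low in the control and TZ 1.25. The median over control was −0.02 at TZ 1.25, 0.14 at TZ 2.5 and 0.21 at TZ 5, and 21 of 80 tested members rose with dose while 1 fell. Small nucleolar RNAs, which lack a poly(A) tail, had 0 calls of 18 and a median of −0.10, and over UPM −0.78 at TZ 2.5 and −1.11 at TZ 5. The 10 measured replication-dependent histone genes, whose mRNAs also lack the tail, had 0 calls and a median of −0.21, and over UPM −0.54 at TZ 2.5 and −0.83 at TZ 5. An oligo-dT primer has no tail to bind in these 2 classes, and what their levels share with the other results was not tested. Proteasome, heat shock and nuclear oxidative phosphorylation genes had 0 calls of 32, 17 and 70 measured, with medians of −0.00, 0.00 and −0.03.

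Kinases and phosphatases of lipid second messengers pass signals from the membrane. Of 27 measured phosphoinositide and diacylglycerol genes 1 was called higher, Dgkq, and 2 lower, Prkca and Tsc2, beside 1.19% and 1.03% over all genes, with a median of −0.06. Prkca, a protein kinase activated by diacylglycerol, had 14.8 in UPM and 8.73 in TZ 1.25, beside 12.4 in the control, 13.9 in TZ 2.5 and 12.5 in TZ 5, a fold of 0.591 (0.427 to 0.812). TZ 1.25 alone was low. Tsc2, the brake on mTORC1, had 17 in UPM and 9.01 in TZ 1.25, beside 10.1 in the control, 14.7 in TZ 2.5 and 13.9 in TZ 5, a fold of 0.53 (0.387 to 0.72). Here the control and TZ 1.25 were low, and UPM was the highest.

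Of 19 receptors and transporters known as trazodone targets 3 were measured and 0 called. The serotonin receptor Htr2b had 12.7 in UPM and 9.56 in TZ 1.25, beside 12.4 in the control, 10.8 in TZ 2.5 and 14.9 in TZ 5, and the adrenergic receptor Adra1a had 18 in UPM and 15.1 in TZ 1.25, beside 18.5 in the control, 13.4 in TZ 2.5 and 15.4 in TZ 5. The intervals of both folds held 1, with folds of 0.754 for Htr2b and 0.838 for Adra1a. Htr2a, the serotonin receptor that trazodone is best known to block, had 0 counts in every library, and the serotonin transporter Slc6a4 reached 0.131 normalised CPM at most.

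**Figure D5:**
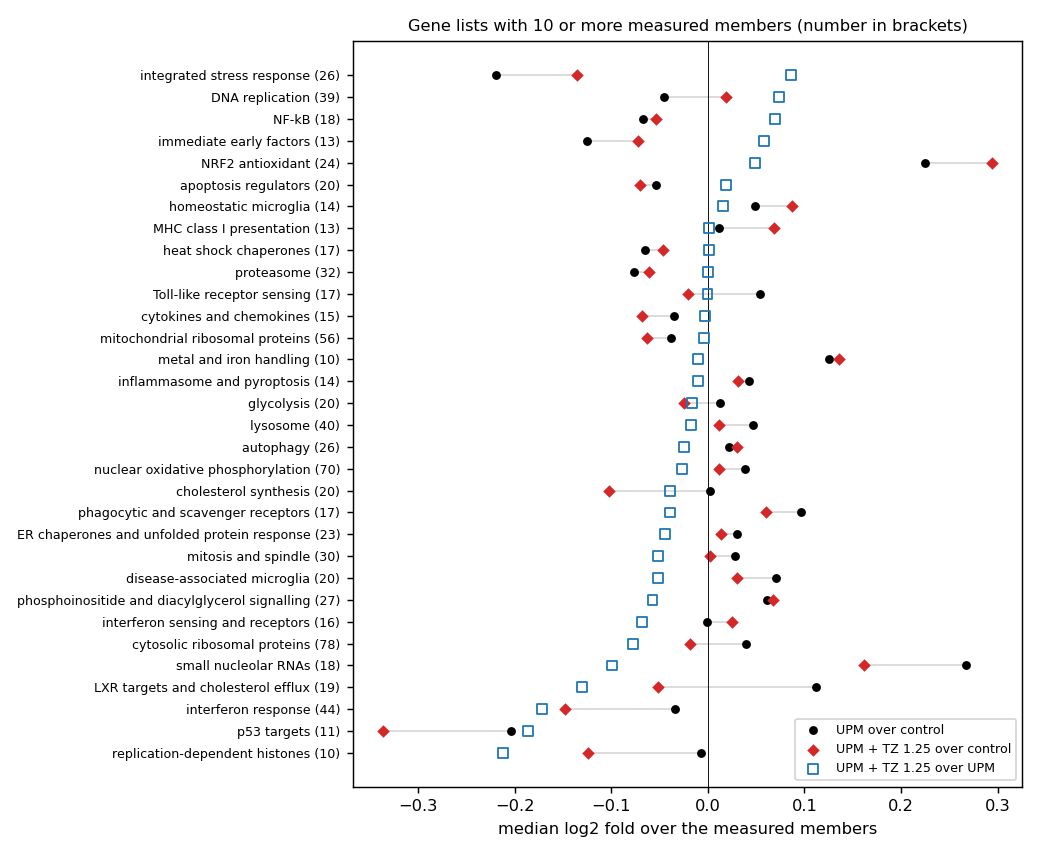
Median log2 fold over the measured members of each gene list with 10 or more (number in brackets), for UPM over control (black circles), TZ 1.25 over control (red diamonds) and TZ 1.25 over UPM (blue squares), 1 library per group and no error bars. The blue squares run from −0.21 for the histones and −0.19 for p53 targets to 0.09 for the integrated stress response. For NRF2 targets both comparisons with the control lie well to the right of 0.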

How the data were processed

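BV-2 RNA was sequenced as 3′ tags (single-end, 75 bp), 5 libraries and 1 per group, with groups taken from the treatment labels. Each library has 1 deposited file of raw counts, whole numbers listed by gene symbol. STAR, edgeR and genome build GRCm39 are named in the submitters' processing notes without a role or version. Which program and annotation were used for counting, and whether strand was kept, is not stated there, so overlapping genes, paralogs and pseudogenes are uncertain. Totals ran from 6829720 to 7696168 counts. There are no molecular identifiers, so intervals cover counting error only.

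CPM were scaled by TMM factors over all 5 libraries (edgeR 4.0.16, limma 3.58.1, R 4.3.3). Folds are ratios of these CPM with 95% Clopper-Pearson intervals (scipy 1.17.1, Python 3.11.15). The dose fit and the TZ 1.25 fit used filterByExpr, glmQLFit and glmQLFTest with Benjamini-Hochberg adjustment. The UPM term fits the single control exactly, so the TZ terms and their residual spread rest on the UPM libraries alone. Nothing shows that libraries came from separate cultures of 1 condition, so p-values measure only the spread between these samples. DESeq2 1.42.0 was an alternative. The calculations were tested on simulated data. The 42 gene lists hold 1004 names, 31 of them matched through an alias.

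Genes named are the 10 highest and 10 lowest called folds without predicted genes, the 6 highest and lowest near UPM, the 4 near TZ 1.25, called list members, up to 2 extreme members of each list described and a panel of inflammation, redox and sterol genes. Others, also in the figures, were named after their values were seen. Values of some list members are not reported here. The comparison, lists and rules were chosen with earlier results of these data known. The reference used here was GRCm38, an earlier build, so coordinates are printed only for RefSeq promoters of GRCm38.p6.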

Additional observations from a re-analysis of the deposited data

How the results depend on the processing

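No paired analysis was possible because each group had 1 library. The 185 calls (99 higher, 86 lower) became 186 with DESeq2 size factors (185 shared), 181 with total counts (181 shared) and 212 with libraries thinned to the smallest total (160 shared). A fold of 2 left 4 (1 higher, 3 lower), with 0 near TZ 1.25, 0 near UPM and 1 list member in place of 17. A CPM minimum of 1 gave 809 (409 higher, 400 lower), 235 near TZ 1.25, 175 near UPM and 37 list members, and a minimum of 30 gave 22 (15 higher, 7 lower), 13, 6 and 4. Narrowing the class width to 1.1-fold put 43 genes near TZ 1.25 and 31 near UPM. Added after seeing the data, the median of the 3 other libraries lay nearer TZ 1.25 for 128 genes, and UPM was an extreme of all 5 libraries for 144 and TZ 1.25 for 114. The median log2 of higher genes over control changed sign with a fold of 2, to −0.2384 for TZ 2.5 and −0.1555 for TZ 5. That of lower genes for TZ 2.5 was 0.0482 with a fold of 2, 0.0401 with total counts, 0.1096 at a CPM minimum of 1 and −0.2407 at 30, and for TZ 5 0.006 at a minimum of 1. Signs of list medians near 0 also changed. With a minimum of 1 they were 0.011 for Toll-like receptor sensing, −0.0385 for immediate early factors, 0.004 for disease-associated and −0.1209 for homeostatic microglia, −0.0162 for identity markers, −0.0313 for apoptosis regulators and −0.0195 for heat shock chaperones. With a minimum of 30 they were 0.0263 for cytokines, −0.0614 for homeostatic microglia, −0.0062 for identity markers, 0.0011 for mitochondrial ribosomal proteins and 0.002 for the proteasome. Total counts gave 0.0008 for Toll-like receptor sensing and 0.0011 for the proteasome, and thinning gave 0.0034 for Toll-like receptor sensing and −0.0093 for identity markers. The dose fit called 706 of 12381 genes, 315 of 3613 with DESeq2, and 202 to 597 genes with 1 library left out. The TZ 1.25 fit called 0, 2 without a filter, and 0 to 1 with 1 library left out. The cause of these changes was not tested. Depth limits the calls most below 30 CPM, where they are most numerous.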

Other observations

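Groups outside the comparisons above had few differences in the pair. Of 20 measured glycolysis genes 0 were called in TZ 1.25 against UPM (median log2 fold −0.02). Gapdh, a glycolytic enzyme, had 20.5 normalised CPM in UPM and 27.7 in TZ 1.25, beside 25.7 in the control, 35.9 in TZ 2.5 and 38.1 in TZ 5. It rose in the dose fit, and no p is given since it was named by its fold in the pair. Of 13 measured immediate early factors 0 were called (median 0.06). Fosl2, an AP-1 subunit, had 65.7 in UPM and 84.4 in TZ 1.25, beside 69 in the control, 76.6 in TZ 2.5 and 70.5 in TZ 5, with TZ 1.25 the highest library. Of 56 measured mitochondrial ribosomal protein genes 0 were called (median −0.00).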
